A study of Mus musculus with 4 samples.

Results

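The genes described here are the cyclins, the cyclin-dependent kinases (CDKs), the inhibitors of those kinases, the retinoblastoma (Rb) family and the main E2F transcription factors of the mouse. They were taken by name from the protein-coding rows of a table of counts per gene. Members were cyclins whose symbol is Ccn with 1 letter and a number, kinases named Cdk with a number, inhibitors named Cdkn with a number and a letter, Cdkn3, Rb1, Rbl1, Rbl2 and E2f1, E2f2, E2f3, E2f7 and E2f8. The rule found 50 genes of the 54752 in the table, of which 21921 are protein-coding. RNA of whole mouse abdominal aortic grafts, depleted of ribosomal RNA, had been sequenced at 4 weeks after transplantation. ALLO grafts, allografts in chronic rejection going by the series title, were set against ISO grafts, an abbreviation left unexplained in the labels. Each group has 2 libraries. Strain, sex, age and any treatment of donors and recipients are not stated in the labels. Whether the 2 libraries of each group stem from different animals is not stated, so p-values measure the spread between these samples. In ALLO that spread may be technical.

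The libraries held 17532344 to 20194854 counts. The sex-linked transcripts set ISO replicate 1 apart, with 10647 Xist and 0 Ddx3y counts, whereas ALLO had at most 6 Xist and at least 2105 Ddx3y counts and ISO replicate 2 had 8 and 2312. The 2 ISO libraries are thus not repeats of 1 sample, and sex-linked transcripts differ within that group. Levels are given as CPM, counts scaled to a common library total, with a further correction for library composition (TMM), and log2 changes are ALLO over ISO. In the graft tissue, all 9 T cell, 5 of 5 NK and cytotoxic and 8 of 8 macrophage markers rose in ALLO, while all 7 smooth muscle markers fell (edgeR adjusted p under 0.05). Of all genes tested, 18.4% were called higher and 14.8% lower. The T cell markers Cd3d, Cd3e, Cd3g, Cd4, Cd5 and Cd8a passed the filter on low counts only through ALLO. So did Ncr1, Klrb1c, Prf1 and Gzmb of the NK and cytotoxic markers, so the rise of these genes is not independent of the filter. Summed T cell markers stood at 426 and 349 CPM in ALLO and at 11.6 and 3.26 CPM in ISO, and NK and cytotoxic markers at 84.8 and 71.7 CPM in ALLO and at 2.22 and 5.73 CPM in ISO. For macrophages the sums were 3740 and 3810 CPM in ALLO and 403 and 156 CPM in ISO, and for smooth muscle 1139 and 2401 CPM in ALLO and 28260 and 28360 CPM in ISO. Of 5 plasma cell markers 3 rose (sums of 2701 and 1041 CPM in ALLO, 95.6 and 52.9 CPM in ISO), and of 6 endothelial markers 3 fell (527 and 549 CPM in ALLO, 1161 and 1174 CPM in ISO). Of the plasma cell markers that rose, Mzb1 and Derl3 also passed the filter only through ALLO. The 5 B cell markers did not pass and summed to 238 and 106 CPM in ALLO and 38.5 and 0.422 CPM in ISO. None of the markers of these cell types was at 0 in both libraries of a group. In ISO replicate 2, however, Cd3d, Cd3e, Cd3g, Cd8a, Cd79b, Ms4a1 and Tnfrsf17 had 0 counts, as had Klrb1c in ISO replicate 1. Fewer cells of a type and less RNA per cell cannot be told apart in such bulk tissue, and the part of these cells in the results that follow was not tested.

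Progress through the cell division cycle depends on kinases that work only when bound to a cyclin. D-type cyclins with CDK4 or CDK6 begin to phosphorylate the Rb family proteins, which hold E2F factors in check, and E2F then switches on cyclin E, cyclin A and the genes of DNA replication. Cyclin B with CDK1 drives mitosis. INK4 proteins block CDK4 and CDK6, and CIP/KIP proteins bind a wider range of cyclin-kinase pairs. In arteries, smooth muscle cells are normally quiescent, whereas activated lymphocytes divide rapidly.

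Of the 50 members, 47 passed the filter on low counts and were tested. In ALLO grafts 20 rose and none fell (edgeR quasi-likelihood test, Benjamini-Hochberg adjusted over all 16498 genes tested), which is 42.6% of the members tested higher, beside 18.4% of all genes tested called higher and 14.8% called lower. Of the 47, 5 (Cdk1, Cdk18, Cdkn2a, Cdkn3 and E2f8) passed the filter only through ALLO, so their rise is not independent of the filter. Of the 42 that passed in both groups, 15 rose. The fitted folds of the 20 ran from 1.67 for the cyclin G1 gene Ccng1 to 49.4 for the E2F repressor gene E2f8, which had 7 counts in ISO. Among them 17 changed over 2-fold, 14 over 4-fold and 7 over 8-fold. The median log2 change of the members tested was 0.57, against 0.025 for all genes tested. At an unadjusted p under 0.05, 24 members were higher and 1, Ccnd2, was lower, and Ccnd2 was also the 1 member called lower by the Wald test of DESeq2 and by limma-voom. In 33 of the 47 tested members both ALLO libraries lay above both ISO libraries, and in 7 both lay below, beside 36.7% and 35.9% of all genes tested. Members not tested were Ccna1, a cyclin of the germ line, with 0 counts in every library (below a floor of 6 counts per library), Ccnb3, with 0 counts in ALLO and 2 in ISO, and Cdk15, with 16 counts in ALLO and 11 in ISO.

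**Figure D1:**
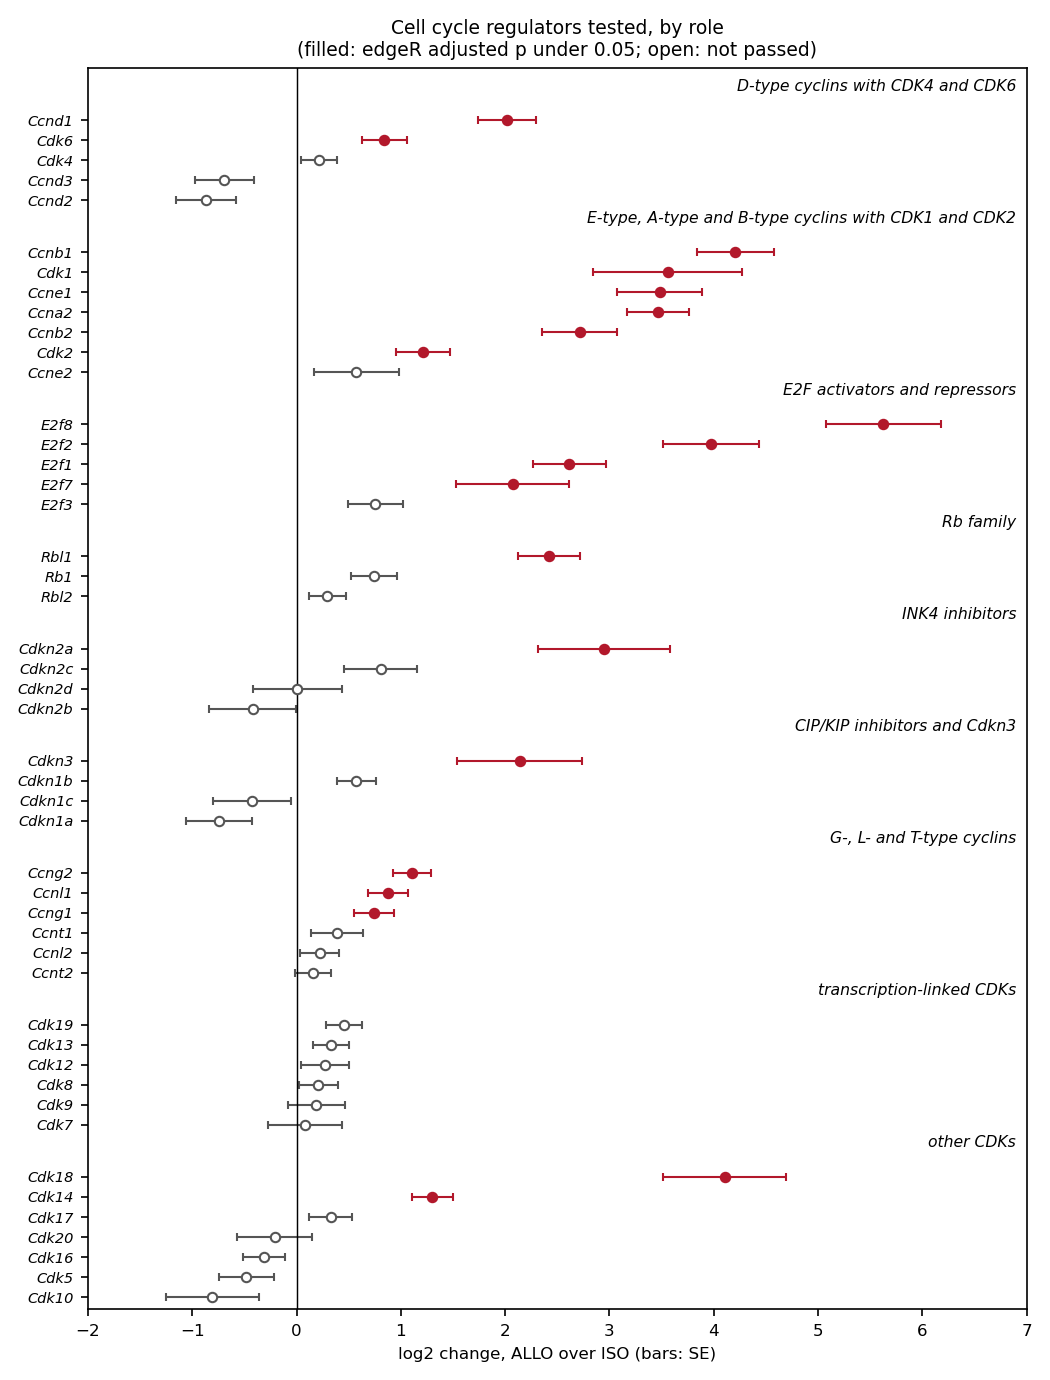
Log2 change (ALLO over ISO) of the 47 members tested, grouped by role, with standard errors as bars and filled points for edgeR adjusted p under 0.05. The filled points all lie to the right of 0 and run from 0.74 (Ccng1) to 5.63 (E2f8), and no transcription-linked kinase is filled.

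The count of 20 depended on single libraries, and with 1 library left out a smaller share of all genes was called higher too. Leaving out ALLO replicate 1 gave 13 and ALLO replicate 2 gave 16, while leaving out ISO replicate 1 gave 12 and ISO replicate 2 gave 11. The members called higher in these fits were among the 20, except Rb1 without ALLO replicate 2, where 3 members (Cdkn1a, Ccnd3 and Cdk10) were also called lower. Of the 20, the 10 that stayed called under each of 15 alternatives were Ccnd1, Ccne1, Ccna2, Ccnb1, Ccnb2, E2f1, E2f2, E2f8, Rbl1 and Cdk18. Of these, E2f8 and Cdk18 passed the filter only through ALLO, so their rise is not independent of the filter.

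**Figure D2:**
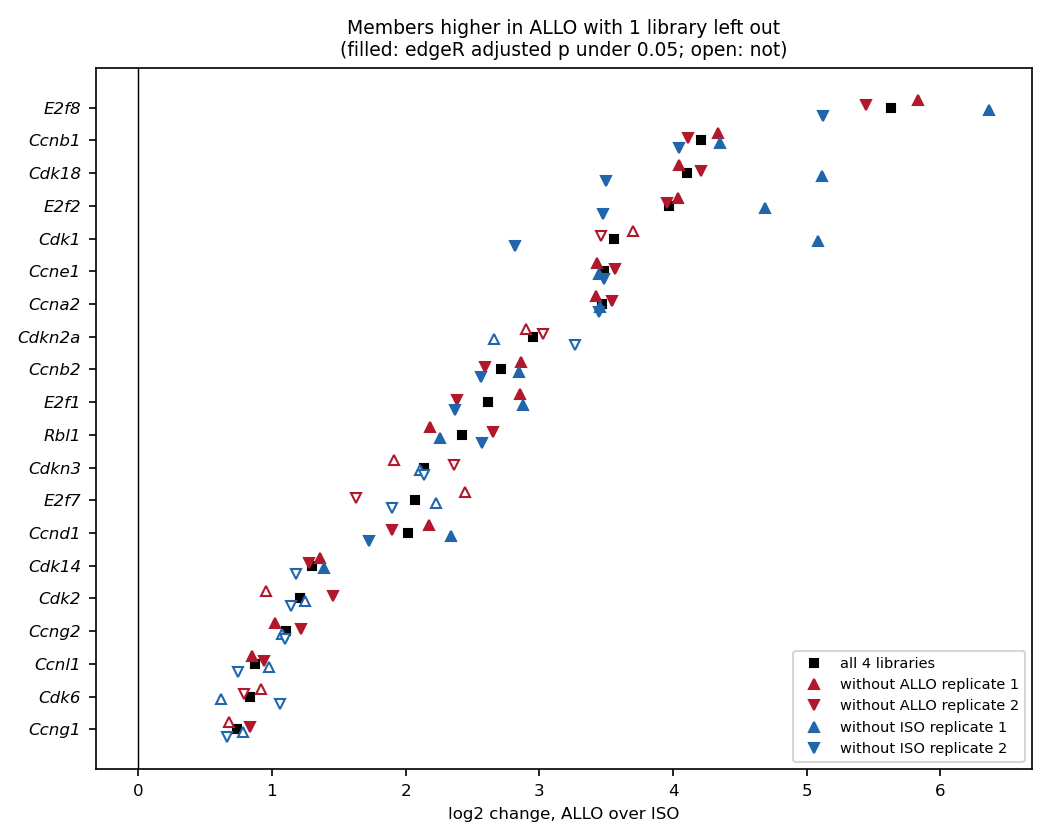
Log2 change (ALLO over ISO) of the 20 members higher in ALLO, with all 4 libraries (squares) and with each library left out in turn (triangles, filled where the edgeR adjusted p was under 0.05). E2f8, Cdk18, E2f2 and Cdk1 move most, always with an ISO library left out, and all values stay above 0.

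Among the D-type cyclins, which couple growth signals to CDK4 and CDK6, Ccnd1 rose, while Ccnd2 and Ccnd3 did not pass the test. Ccnd1 (ENSMUSG00000070348, chromosome 7, 144929931 to 144939925, mm10) stood at 49.9 and 60.2 CPM in ALLO and at 16.5 and 10.9 CPM in ISO. Both ALLO libraries were above both ISO libraries, by 4.05-fold (log2 change 2.02 ± 0.28 (SE), edgeR adjusted p = 0.00788). Ccnd2 had 175 and 121 CPM in ALLO, against 236 and 310 CPM in ISO (log2 change -0.87 ± 0.29, edgeR adjusted p = 0.0720, and 0.0287 to 0.323 over the alternatives). Ccnd3 had 60.9 and 101 CPM in ALLO, against 139 and 124 CPM in ISO (-0.69 ± 0.29, edgeR adjusted p = 0.125), and was called lower without ALLO replicate 2 (-1.08). For both genes the ALLO libraries lay below the ISO libraries. Per exonic length, Ccnd1 made up 29.3% and 34.4% of the summed D-type cyclin level in ALLO and 7.89% and 4.66% in ISO. That sum was 36.1 and 37.1 CPM per kb in ALLO and 44.5 and 49.4 CPM per kb in ISO. Ccnd2 was the most abundant of the 3 per length in each library, with 51.5% and 34.5% of the sum in ALLO and 56.4% and 66.7% in ISO, though in ALLO replicate 2 it lay close to the 34.4% of Ccnd1. Of the exonic bases of Ccnd1, 23.4% overlap LTO1 on the opposite strand, whose own change was in the other direction (log2 change -0.91, edgeR adjusted p = 0.0398).

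Of the 2 kinases bound by D-type cyclins, Cdk6 rose and Cdk4 did not pass. Cdk6 (chromosome 5, 3341485 to 3531008) had 62.9 and 68.4 CPM in ALLO and 31.3 and 42.7 CPM in ISO, 1.79-fold higher (log2 change 0.84 ± 0.22, edgeR adjusted p = 0.0376), a call lost when any 1 of the libraries was left out. Cdk4 had 65.8 and 76.1 CPM in ALLO and 62.1 and 61.1 CPM in ISO (0.22 ± 0.17, edgeR adjusted p = 0.389). Per length Cdk4 was the more abundant of the pair in each library, with 81.8% and 82.7% of their sum in ALLO and 89.5% and 86.0% in ISO.

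Of 7 tested genes for E-, A- and B-type cyclins with CDK1 and CDK2, 6 rose (85.7%, beside 18.4% of all genes tested) and Ccne2 did not pass. The median log2 change was 3.47. Ccna2, which encodes the cyclin A of dividing somatic cells (ENSMUSG00000027715, chromosome 3, 36564865 to 36572150), had 20.7 and 19.1 CPM in ALLO and 1.81 and 1.81 CPM in ISO. This 11.1-fold rise (log2 change 3.47 ± 0.29, edgeR adjusted p = 0.00345) had the smallest adjusted p of the members. Ccnb1, the main mitotic cyclin (ENSMUSG00000041431, chromosome 13, 100778650 to 100786570), had 12.6 and 14.7 CPM in ALLO and 0.817 and 0.663 CPM in ISO, 18.5-fold higher (4.21 ± 0.37, edgeR adjusted p = 0.00361). Ccnb2, a second mitotic cyclin gene, had 9.49 and 11.4 CPM in ALLO and 1.75 and 1.45 CPM in ISO, 6.56-fold higher (2.72 ± 0.36, edgeR adjusted p = 0.00719). In none of these 3 genes did the groups overlap. The processed pseudogene Ccnb2-ps, which could share reads with Ccnb2, had 60 and 40 counts in ALLO and 65 and 44 in ISO, and how reads that map to several places were counted is not known here.

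Both E-type cyclin genes serve entry into S phase, but they differed in these grafts. Ccne1 (ENSMUSG00000002068, chromosome 7, 38097984 to 38107534) had 8.33 and 7.57 CPM in ALLO and 0.701 and 0.724 CPM in ISO, 11.2-fold higher (log2 change 3.48 ± 0.41, edgeR adjusted p = 0.0056). Ccne2 had 3.58 and 4.49 CPM in ALLO and 2.69 and 2.77 CPM in ISO (0.57 ± 0.41, edgeR adjusted p = 0.331). Per length, the level of Ccne1 was 3.05 and 2.21 times that of Ccne2 in the ALLO libraries and 0.343 and 0.342 times in the ISO libraries, so the order of the pair differed between the groups in each library. The difference between the 2 changes was not tested.

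Cdk1, the mitotic kinase (ENSMUSG00000019942, chromosome 10, 69335146 to 69352938), had 15.2 and 18.0 CPM in ALLO and 2.34 and 0.482 CPM in ISO, 11.8-fold higher (log2 change 3.56 ± 0.71, edgeR adjusted p = 0.0197). The gene passed the filter only through ALLO, so its rise is not independent of the filter. The ISO libraries differed from each other here, with 40 and 8 counts, so leaving out replicate 1 gave a fold of 33.9 and leaving out replicate 2 one of 7.04. The Cdk1 call was lost without either ALLO library (edgeR adjusted p = 0.0534 and 0.0548, and 5.84e-07 to 0.0548 over the alternatives). Cdk2, the kinase of cyclins E and A, had 43.9 and 31.0 CPM in ALLO and 16.9 and 15.8 CPM in ISO, 2.31-fold higher (1.21 ± 0.26, edgeR adjusted p = 0.0234). That call was lost without ALLO replicate 1 and without either ISO library.

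**Figure D3:**
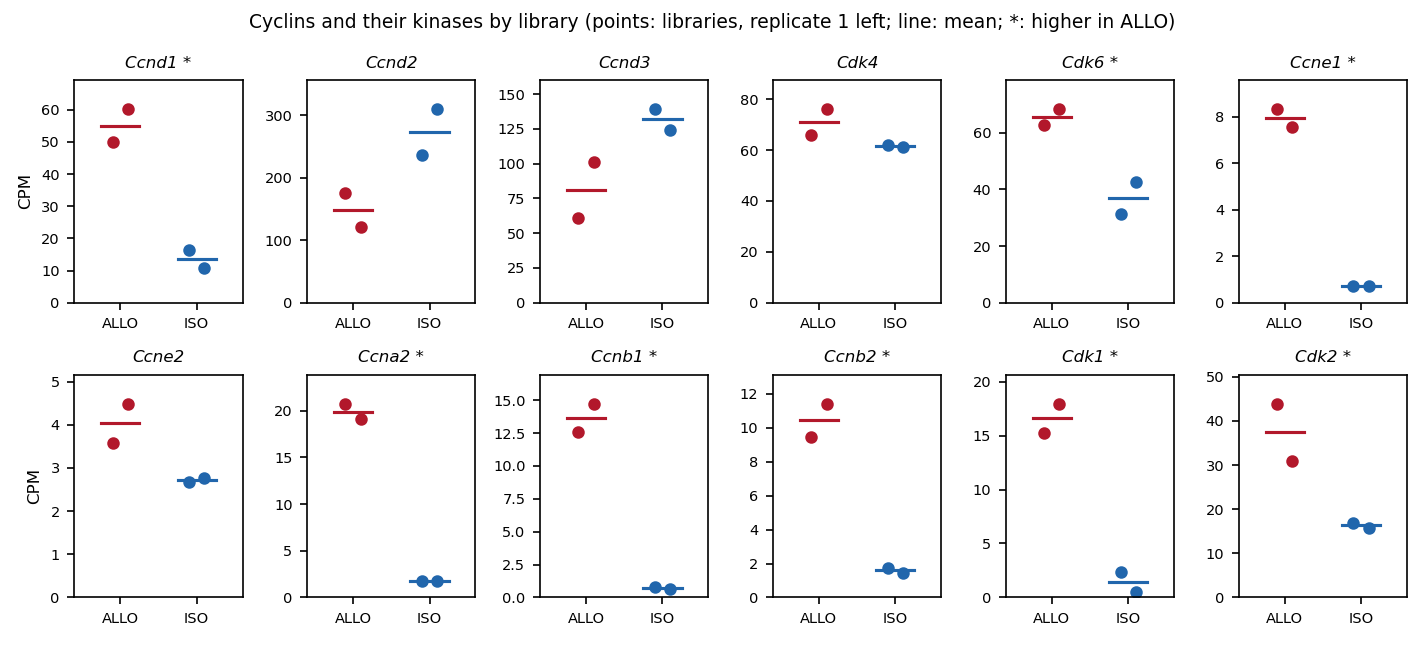
CPM of 12 cyclin and kinase genes in each ALLO and ISO library (points) with group means (lines), each panel on its own axis from 0, and an asterisk for genes higher in ALLO by edgeR. Ccna2, Ccnb1, Ccnb2, Ccne1 and Cdk1 are near the floor of their panels in ISO, at 2.34 CPM or less, whereas Ccnd2 and Ccnd3 lie lower in ALLO without passing the test.

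E2F factors comprise activators (E2f1, E2f2 and E2f3) and the atypical repressors E2f7 and E2f8, which damp the same targets later in the cycle. Of the 5 genes, 4 rose (80%, beside 18.4% of all genes tested). E2f8 (ENSMUSG00000046179, chromosome 7, 48866429 to 48881596) had 9.08 and 11.9 CPM in ALLO and 0.292 and 0.121 CPM in ISO, 49.4-fold higher (log2 change 5.63 ± 0.55, edgeR adjusted p = 0.00426). It passed the filter only through ALLO, with 442 counts there and 5 and 2 in the ISO libraries, each below the floor of 6, so the size of the fold is poorly fixed. The ratio of the scaled sums, 50.8, had a 95% counting interval of 17.1 to 165. Without ISO replicate 1 the fitted fold was 82.5. E2f7, its partner, had 2.88 and 5.08 CPM in ALLO and 1.05 and 0.844 CPM in ISO, 4.20-fold higher (2.07 ± 0.54, edgeR adjusted p = 0.0395), a call lost when any 1 of the libraries was left out.

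E2f2 (ENSMUSG00000018983, chromosome 4, 136172394 to 136196057) had 27.4 and 28.9 CPM in ALLO and 2.51 and 1.09 CPM in ISO, 15.7-fold higher (log2 change 3.97 ± 0.46, edgeR adjusted p = 0.00536), and 25.8-fold without ISO replicate 1. E2f1 (chromosome 2, 154559407 to 154569892) had 15.3 and 21.2 CPM in ALLO and 3.50 and 2.47 CPM in ISO, 6.13-fold higher (2.62 ± 0.35, edgeR adjusted p = 0.00748). E2f3 had 22.7 and 20.3 CPM in ALLO and 11.0 and 14.7 CPM in ISO (0.76 ± 0.27, edgeR adjusted p = 0.0857), and passed with scaling by library size only (log2 change 0.94). In ISO, E2f3 made up 52.97% and 70.6% of the summed level per length of these 5 genes. In ALLO it made up 25.1% and 19.5%, and E2f1 and E2f2 together were the larger part, at 29.2% and 35.1% for E2f1 and 33.7% and 31.0% for E2f2.

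Of the Rb family, which binds E2F and restrains it, Rbl1 rose. Rbl1, which encodes p107 (ENSMUSG00000027641, chromosome 2, 157145893 to 157204534), had 40.2 and 28.9 CPM in ALLO and 5.78 and 7.24 CPM in ISO, 5.36-fold higher (log2 change 2.42 ± 0.30, edgeR adjusted p = 0.00604). Rb1, the retinoblastoma gene, had 76.2 and 55.0 CPM in ALLO and 39.6 and 39.5 CPM in ISO (0.74 ± 0.22, edgeR adjusted p = 0.0575). It came closest of the members to the threshold without passing it, and passed under 4 of 15 alternatives, among them leaving out ALLO replicate 2 (0.98). Rbl2, which encodes the p130 of quiescent cells, had 77.4 and 75.0 CPM in ALLO and 58.2 and 67.2 CPM in ISO (0.29 ± 0.18, edgeR adjusted p = 0.261). Per length, Rbl1 was the least abundant of the 3 in each library, at 22.6% and 20.2% of the sum in ALLO and 6.32% and 7.24% in ISO. Of the exonic bases of Rb1, 14.9% overlap Lpar6 or Rcbtb2 on the opposite strand, and Lpar6 rose (log2 change 2.62, edgeR adjusted p = 0.00451). Whether counting used strand is not given in the sources used here, and the part of such overlaps in the counts was not tested.

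Promoter sequences are shown for 5 members that rose, because they hold motifs through which E2F and the DREAM complex are known to act on cell cycle genes. They are RefSeq windows on GRCm38.p6, from 250 bases before to 50 bases after the annotated start, on the strand of the gene. Capitals mark the E2F motif (TTTCGCGC, TTTGGCGC, TTTCCCGC or TTTGCCGC), the cell cycle genes homology region, CHR (TTTGAA or TTCGAA), and the CCAAT box (CCAAT), each searched on both strands, with overlapping matches counted. The windows are chr10:69352863-69353162 on the minus strand for Cdk1, chr9:70421505-70421804 on the minus strand for Ccnb2, chr2:157204485-157204784 on the minus strand for Rbl1, chr10:128705002-128705301 on the minus strand for Cdk2, and chr10:110745189-110745488 on the plus strand for E2f7.
Cdk1: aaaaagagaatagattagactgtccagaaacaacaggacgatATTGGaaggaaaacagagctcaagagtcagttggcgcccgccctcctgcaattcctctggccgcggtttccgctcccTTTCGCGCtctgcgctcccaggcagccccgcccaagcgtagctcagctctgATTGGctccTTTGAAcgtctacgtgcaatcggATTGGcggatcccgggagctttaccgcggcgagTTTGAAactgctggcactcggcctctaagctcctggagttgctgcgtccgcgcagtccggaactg
Ccnb2: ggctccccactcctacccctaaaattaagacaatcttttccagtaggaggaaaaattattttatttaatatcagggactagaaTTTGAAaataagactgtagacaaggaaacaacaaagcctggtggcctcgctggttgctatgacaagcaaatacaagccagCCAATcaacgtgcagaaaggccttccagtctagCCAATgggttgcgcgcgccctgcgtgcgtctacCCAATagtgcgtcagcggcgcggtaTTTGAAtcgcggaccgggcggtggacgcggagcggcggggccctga
Rbl1: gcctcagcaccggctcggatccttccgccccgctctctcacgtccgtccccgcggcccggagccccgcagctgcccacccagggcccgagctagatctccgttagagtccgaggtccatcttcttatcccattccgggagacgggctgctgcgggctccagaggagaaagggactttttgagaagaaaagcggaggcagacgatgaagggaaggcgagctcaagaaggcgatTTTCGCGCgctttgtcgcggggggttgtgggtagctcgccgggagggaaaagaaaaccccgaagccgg
Cdk2: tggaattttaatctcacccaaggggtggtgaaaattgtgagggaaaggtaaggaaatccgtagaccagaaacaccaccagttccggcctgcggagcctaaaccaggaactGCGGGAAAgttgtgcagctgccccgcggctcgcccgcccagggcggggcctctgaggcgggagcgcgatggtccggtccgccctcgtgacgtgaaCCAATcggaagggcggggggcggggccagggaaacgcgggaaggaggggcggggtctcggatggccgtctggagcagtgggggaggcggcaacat
E2f7: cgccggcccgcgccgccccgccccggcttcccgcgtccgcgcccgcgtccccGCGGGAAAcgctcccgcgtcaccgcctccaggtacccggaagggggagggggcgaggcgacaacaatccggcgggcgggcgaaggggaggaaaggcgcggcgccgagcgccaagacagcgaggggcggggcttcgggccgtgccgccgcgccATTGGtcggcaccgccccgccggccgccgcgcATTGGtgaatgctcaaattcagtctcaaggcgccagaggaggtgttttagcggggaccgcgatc

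Cdk1 held all 3 kinds of motif, with an E2F motif whose first base lay 131 bases before the start, a CHR 71 and another 15 bases before it, and CCAAT boxes 208, 80 and 48 bases before it. In Ccnb2, 3 CCAAT boxes stood 87, 54 and 21 bases before the start, with a CHR 167 bases before and another 4 bases after it, and no E2F motif was found. The single E2F motif of Rbl1 lay 18 bases before the start, that of Cdk2 140 bases and that of E2f7 198 bases before it. Of the 50 members, 41 had a window in the RefSeq table, and among those that rose Ccna2 and Ccnd1 had none. No motif of these kinds was found in the windows of Ccne1, E2f1, Ccng2, Ccnl1, Cdk14 and Cdk6, which also rose. For E2f1, Ccng2, Cdk14 and Cdk6, however, the window lay wholly inside the gene as deposited. The E2f1 window was chr2:154569377-154569676, while that gene, on the minus strand, begins at 154569892. Sequence before the outermost start of these genes was thus not searched. An E2F motif was found for 6 of 18 members called higher (33.3%; Cdk1, Cdk2, Rbl1, E2f2, E2f7 and Cdkn2a), for 1 of 20 members tested that did not pass (5%, E2f3), and for 2.6% of all 27025 genes in the table. CHR motifs were found for 27.8% of the members called higher, 20% of those that did not pass and 21.7% of all genes. CCAAT boxes were found for 61.1%, 50% and 41.1% of these sets. A match describes the letters of the window and does not show that a factor binds there. Lack of a match holds for the window only, and the shares above carry the same limit.

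INK4 genes encode the inhibitors specific to CDK4 and CDK6. Of the 4, Cdkn2a rose, having passed the filter only through ALLO, so its rise is not independent of the filter. Cdkn2a (ENSMUSG00000044303, chromosome 4, 89274471 to 89294653) had 2.42 and 2.22 CPM in ALLO and 0.234 and 0.362 CPM in ISO, 7.73-fold higher (log2 change 2.95 ± 0.63, edgeR adjusted p = 0.0234). Its counts were 48 and 49 in ALLO and 4 and 6 in ISO, which gave a ratio of the scaled sums of 7.81 with a 95% counting interval of 3.09 to 24.9, and the call was lost when any 1 of the libraries was left out. Cdkn2b, its neighbour on chromosome 4 (89306299 to 89311039), had 2.83 and 2.45 CPM in ALLO and 3.39 and 3.74 CPM in ISO (-0.42 ± 0.42, edgeR adjusted p = 0.485). The level of Cdkn2a per length was 1.02 and 1.08 times that of Cdkn2b in the ALLO libraries and 0.0818 and 0.115 times in the ISO libraries. The difference between the 2 changes was not tested.

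Cdkn2a encodes 2 unrelated proteins from separate starts, the INK4 protein p16INK4a and the p53 activator p19ARF. The counts are per gene and the transcripts share exons, so the rise cannot be assigned to either start. The RefSeq windows of both starts are shown because this bears on how the value can be read, with capitals as above, at chr4:89282143-89282442 and chr4:89294570-89294869 on the minus strand of GRCm38.p6.
Cdkn2a, start that gives p16INK4a: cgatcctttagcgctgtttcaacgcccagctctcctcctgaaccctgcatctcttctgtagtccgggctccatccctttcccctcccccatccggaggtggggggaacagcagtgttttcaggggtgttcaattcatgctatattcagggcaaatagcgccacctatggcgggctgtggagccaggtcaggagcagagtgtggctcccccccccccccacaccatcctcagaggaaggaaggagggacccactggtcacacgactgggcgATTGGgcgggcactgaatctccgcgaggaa
Cdkn2a, start that gives p19ARF: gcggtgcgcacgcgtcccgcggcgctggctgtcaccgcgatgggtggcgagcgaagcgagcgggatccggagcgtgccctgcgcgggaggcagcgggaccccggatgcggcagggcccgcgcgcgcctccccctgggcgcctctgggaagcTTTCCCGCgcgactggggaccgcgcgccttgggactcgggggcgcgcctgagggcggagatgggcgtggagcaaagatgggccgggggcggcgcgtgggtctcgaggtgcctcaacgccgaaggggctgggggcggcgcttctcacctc

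The window of p19ARF held an E2F motif whose first base lay 99 bases before the start, and that of p16INK4a held a CCAAT box after the start and no E2F motif. Cdkn2c, which encodes p18INK4c, had 21.1 and 33.6 CPM in ALLO and 19.1 and 12.4 CPM in ISO (log2 change 0.81 ± 0.35, edgeR adjusted p = 0.139). Cdkn2d, which encodes p19INK4d, had 11.0 and 25.4 CPM in ALLO and 18.5 and 17.9 CPM in ISO (0.0072 ± 0.43, edgeR adjusted p = 0.992). Its ALLO libraries lay on either side of the ISO libraries, and the sign of its change turned with upper quartile scaling (-0.024). Per length, Cdkn2c and Cdkn2d made up most of the INK4 level in each library, Cdkn2a at most 10.9% (ALLO replicate 1).

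None of the 3 CIP/KIP inhibitor genes passed the test (edgeR), though Cdkn1b had an unadjusted p of 0.0285. Cdkn1a, which encodes p21, a target of p53 (chromosome 17, 29090976 to 29100727), had 73.0 and 131 CPM in ALLO and 183 and 162 CPM in ISO (log2 change -0.75 ± 0.32, edgeR adjusted p = 0.132), and was called lower without ALLO replicate 2 (-1.21). Cdkn1b, which encodes p27, had 146 and 132 CPM in ALLO and 99.6 and 88.6 CPM in ISO (0.57 ± 0.19, edgeR adjusted p = 0.0739), and passed with scaling by library size only (0.76). Cdkn1c, the imprinted p57 gene, had 15.7 and 8.34 CPM in ALLO and 17.2 and 15.5 CPM in ISO (-0.43 ± 0.38, edgeR adjusted p = 0.434). Per length, Cdkn1a was the most abundant of the 3 in ISO, with 62.9% and 62.7% of their sum. In ALLO it held 34.1% and 52.7%, and Cdkn1b 53.1% and 41.5%. Cdkn3, a phosphatase that acts on CDKs and is grouped here by its name, had 2.42 and 1.77 CPM in ALLO and 0.467 and 0.482 CPM in ISO, 4.41-fold higher (2.14 ± 0.60, edgeR adjusted p = 0.0474). Cdkn3 passed the filter only through ALLO, so its rise is not independent of the filter. It rested on 16 counts in ISO and 87 in ALLO and lost its call when any 1 of the libraries was left out.

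**Figure D4:**
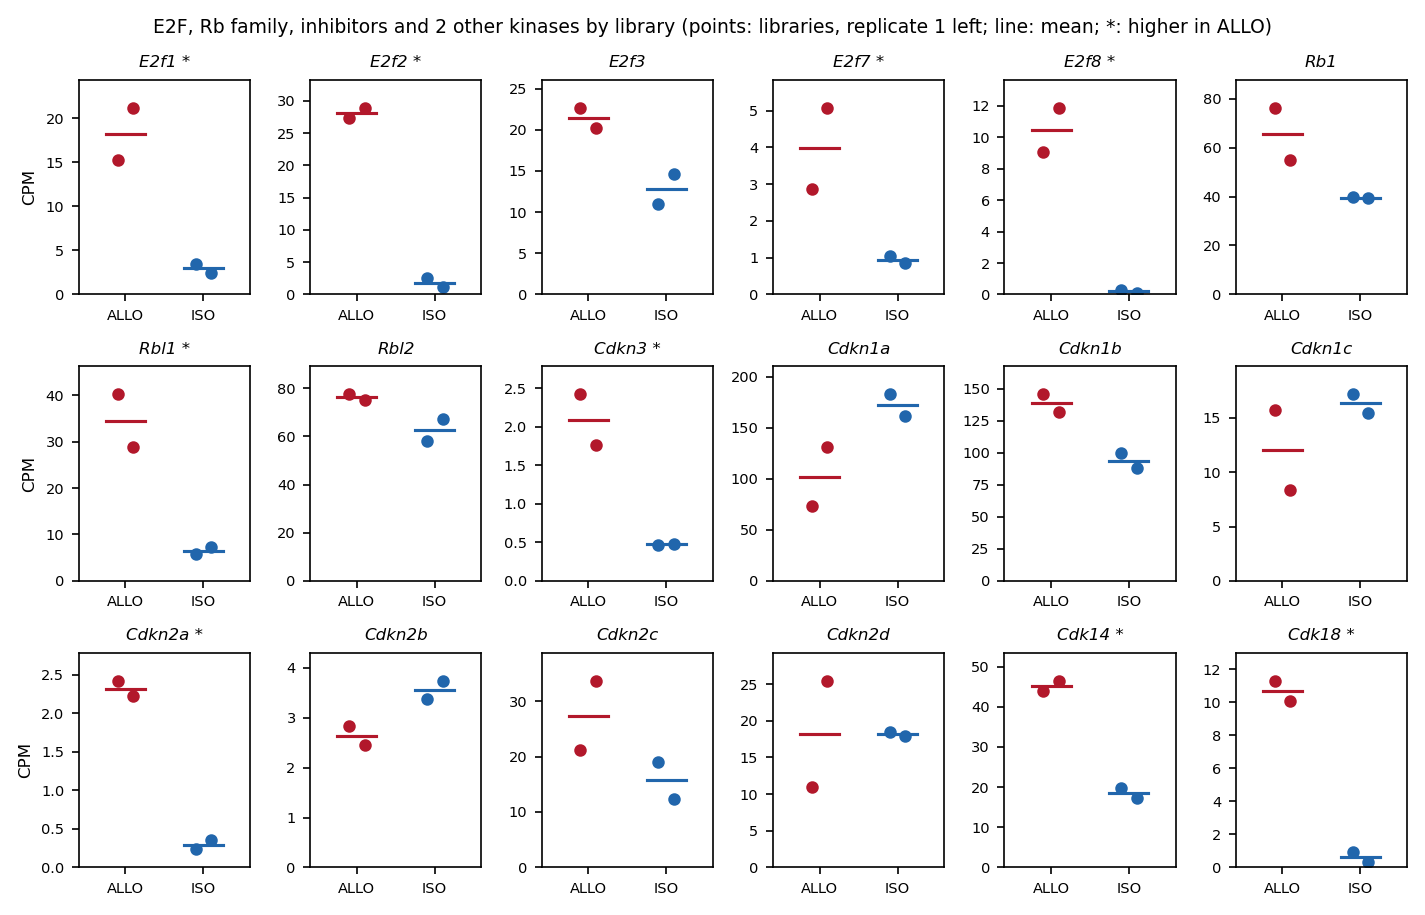
CPM of E2F, Rb family and inhibitor genes and of Cdk14 and Cdk18 in each ALLO and ISO library (points) with group means (lines), each panel on its own axis from 0, and an asterisk for genes higher in ALLO by edgeR. Cdkn2a lies at 2.42 and 2.22 CPM in ALLO and below 0.4 CPM in ISO, Cdkn2b lies slightly lower in ALLO without passing the test, and the ALLO points of Cdkn2d lie on both sides of ISO.

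**Figure D5:**
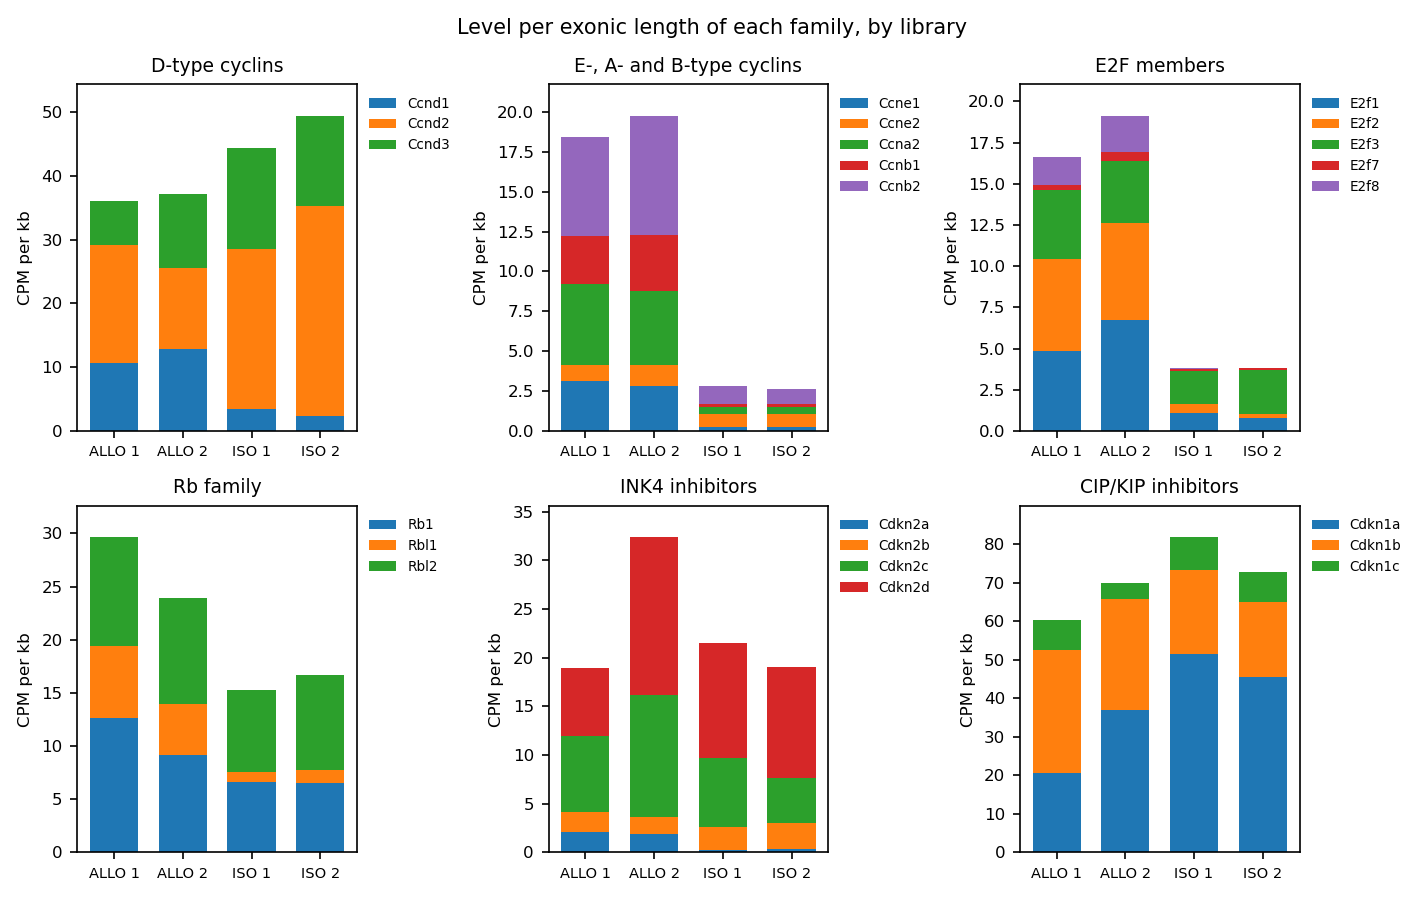
Level per exonic length (CPM per kb, stacked bars from 0) of 6 families in each ALLO and ISO library, split by gene. The summed E-, A- and B-type cyclins reach 18.4 and 19.8 CPM per kb in ALLO and 2.81 and 2.61 in ISO, and the summed E2F genes 16.6 and 19.1 in ALLO and 3.82 and 3.82 in ISO, while the INK4 sums of the groups overlap.

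The plot of levels per length shows how far the families differed. Summed over Ccne1, Ccne2, Ccna2, Ccnb1 and Ccnb2, the level was 18.4 and 19.8 CPM per kb in ALLO, against 2.81 and 2.61 CPM per kb in ISO. The Rb family summed to 29.6 and 23.9 CPM per kb in ALLO and 15.3 and 16.7 CPM per kb in ISO. INK4 genes summed to 18.9 and 32.3 CPM per kb in ALLO and 21.5 and 19.0 CPM per kb in ISO, and the groups overlapped. CIP/KIP genes summed to 60.2 and 69.9 CPM per kb in ALLO and 81.7 and 72.6 CPM per kb in ISO.

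Of 6 genes for G-, L- and T-type cyclins, which act outside the core cycle, 3 rose (50%, beside 18.4% of all genes tested). The median log2 change over the 6 was 0.57. Ccng2, a cyclin linked to cell cycle arrest (chromosome 5, 93267257 to 93276231), had 58.7 and 51.3 CPM in ALLO and 25.5 and 26.1 CPM in ISO, 2.15-fold higher (1.11 ± 0.18, edgeR adjusted p = 0.0121), a call lost without either ISO library. Ccnl1, a cyclin of pre-mRNA splicing, had 140.0 and 131 CPM in ALLO and 80.0 and 68.8 CPM in ISO, 1.84-fold higher (0.88 ± 0.19, edgeR adjusted p = 0.0242), and its call too was lost without either ISO library. Ccng1, a p53 target, had 157 and 141 CPM in ALLO and 93.4 and 86.5 CPM in ISO, 1.67-fold higher (0.74 ± 0.19, edgeR adjusted p = 0.0367). That call was lost without ALLO replicate 1 and without either ISO library. Ccnl2, Ccnt1 and Ccnt2, of which the T-type cyclins pair with CDK9 in transcription elongation, changed by 0.16 to 0.39 and did not pass.

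None of the 6 transcription-linked kinases passed the test (Cdk7, Cdk8, Cdk9, Cdk12, Cdk13 and Cdk19), at log2 changes of 0.079 to 0.45. Cdk19 alone had an unadjusted edgeR p under 0.05 (0.0425), and passed with scaling by library size only (log2 change 0.64). Cdk7 phosphorylates other CDKs and RNA polymerase II, Cdk9 is the kinase of elongation, and Cdk8 and Cdk19 belong to the Mediator complex. Cdk9 had 65.2 and 106 CPM in ALLO and 79.1 and 72.3 CPM in ISO, so its groups overlapped. Cdk7 overlapped as well, at 26.2 and 17.3 CPM in ALLO and 16.1 and 25.5 CPM in ISO. Cdk13, a kinase of transcription elongation, had 86.3 and 81.0 CPM in ALLO and 64.7 and 69.6 CPM in ISO (0.33 ± 0.17, edgeR adjusted p = 0.203).

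Of the 8 other kinases, 7 were tested and 2 rose (28.6%, beside 18.4% of all genes tested). Cdk18, a PCTAIRE kinase (ENSMUSG00000026437, chromosome 1, 132112237 to 132139684), had 11.3 and 10.1 CPM in ALLO and 0.934 and 0.302 CPM in ISO, 17.2-fold higher (log2 change 4.11 ± 0.59, edgeR adjusted p = 0.00862). It passed the filter only through ALLO, so its rise is not independent of the filter. With 16 and 5 counts in the ISO libraries, the fold was 34.7 when replicate 1 of ISO was left out and 11.3 when replicate 2 was. Cdk14, a PFTAIRE kinase that pairs with cyclin Y (chromosome 5, 4803391 to 5420312), had 44.0 and 46.5 CPM in ALLO and 19.8 and 17.2 CPM in ISO, 2.46-fold higher (1.3 ± 0.20, edgeR adjusted p = 0.00978), and lost its call without ISO replicate 2. The PCTAIRE relatives of Cdk18 did not pass. Cdk16 had 64.6 and 82.8 CPM in ALLO and 97.7 and 86.5 CPM in ISO (-0.31 ± 0.20, edgeR adjusted p = 0.300), and Cdk17 had 58.8 and 46.6 CPM in ALLO and 45.1 and 39.6 CPM in ISO (0.33 ± 0.21, edgeR adjusted p = 0.277). Cdk5, Cdk10 and Cdk20 had log2 changes of -0.48, -0.81 and -0.21 and did not pass, and Cdk10 was called lower without ALLO replicate 2 (-1.51).

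Order by level differed from order by change. Per length, the most abundant tested members in ALLO were Ccng1, Ccnl2, Cdkn1b and Cdkn1a, at means of 42.4, 37.1, 30.5 and 28.7 CPM per kb. In ISO they were Cdkn1a, Ccnl2, Ccnd2 and Ccng1, at 48.5, 32.1, 29.0 and 25.6 CPM per kb. Between neighbours in ALLO the spread was wide, since Cdkn1a had 20.5 and 36.8 CPM per kb in the ALLO libraries, a range that spans Cdkn1b at 32.0 and 29.0.

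Genes that work beside the members were read from lists made from textbook knowledge, against the 18.4% of all genes tested called higher and 14.8% called lower. Mitotic genes rose in 13 of 13 cases, with a median log2 change of 4.06, and in 13 when any 1 of the libraries was left out. Cenpe, a kinesin of the kinetochore, had 21.7 and 15.7 CPM in ALLO and 1.28 and 0.965 CPM in ISO (edgeR adjusted p = 0.00395), Top2a, a DNA topoisomerase, rose 17.8-fold (edgeR adjusted p = 0.0041) and the spindle kinesin gene Kif11 rose 16.4-fold (edgeR adjusted p = 0.00443). Mki67, the proliferation marker, named here with its values known, had 174 and 91.9 CPM in ALLO and 9.34 and 3.62 CPM in ISO. Of the mitotic genes, Aurkb, Birc5, Bub1, Cenpf and Ndc80 passed the filter only through ALLO, so their rise is not independent of the filter. S phase targets of E2F rose in 11 of 16 cases, with a median of 1.52, and in 7 without ALLO replicate 1. Rrm2, a subunit of ribonucleotide reductase, had 33.6 and 27.2 CPM in ALLO and 2.69 and 2.41 CPM in ISO, 12.0-fold higher (edgeR adjusted p = 0.00321). The licensing factor gene Cdt1 rose 10.7-fold (edgeR adjusted p = 0.00409) and the helicase subunit gene Mcm3 4.45-fold (edgeR adjusted p = 0.0042). Another helicase subunit gene, Mcm6, did not pass, at 74.5 and 58.7 CPM in ALLO and 65.6 and 90.0 CPM in ISO. It is named with its values known.

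Of 12 genes of the DREAM and MuvB complexes, which repress or activate cell cycle promoters, and of other E2F family members, 4 rose (33.3%) and 1 fell (8.33%), with a median log2 change of 0.074. Foxm1, an activator of mitotic genes, rose 7.59-fold (edgeR adjusted p = 0.00551), Mybl2, its partner in activation, 6.80-fold (edgeR adjusted p = 0.0174), and Lin9, a core subunit, 3.93-fold (edgeR adjusted p = 0.0245). E2f6, a repressor outside Rb control, fell to 16.7 and 17.3 CPM in ALLO, against 34.3 and 34.8 CPM in ISO (edgeR adjusted p = 0.0188). The number that rose was 1 without ALLO replicate 1 and 2 without ISO replicate 2, and E2f6 lost its call without either ISO library. Of 12 enzymes and adaptors that activate or restrain CDKs, 3 rose (25%) and 1 fell (8.33%), beside 18.4% and 14.8% of all genes tested. The CDK-activating phosphatase gene Cdc25b rose 2.57-fold (edgeR adjusted p = 0.013) and Cks2, a small CDK-binding protein, 3.07-fold (edgeR adjusted p = 0.0232). Cdc25c, a further phosphatase of this family, had 33 and 51 counts in ALLO and 0 and 2 in ISO (edgeR adjusted p = 0.0242). Cdc25c passed the filter only through ALLO, so its rise is not independent of the filter. Cables1, an adaptor that links CDKs to other kinases, had 7.17 and 10.7 CPM in ALLO and 28.4 and 19.0 CPM in ISO, 2.63-fold lower (edgeR adjusted p = 0.0331). Only 1 rose without ISO replicate 1 or without ALLO replicate 1, and Cables1 was not called in those fits. Without ALLO replicate 2, 2 of these genes fell.

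Of 13 genes for the ubiquitin ligases that degrade cyclins and inhibitors, 2 rose, or 15.4%, below the 18.4% of all genes tested. They were Ube2c, the E2 enzyme of the anaphase-promoting complex, at 11.6-fold (edgeR adjusted p = 0.00395), and its activator Cdc20 at 4.98-fold (edgeR adjusted p = 0.024). Without ALLO replicate 2, 1 rose. Of 8 tested genes among 10 other cyclin-box genes, 1 rose (12.5%), Ccnf, which encodes the F-box cyclin of G2 phase, at 9.34 and 8.93 CPM in ALLO and 1.46 and 0.965 CPM in ISO (edgeR adjusted p = 0.00806). Of 15 p53 pathway genes other than Cdkn1a and Ccng1, 5 rose (33.3%, beside 18.4% of all genes tested), with a median log2 change of 0.58. The apoptosis gene Pmaip1 rose 31.6-fold (edgeR adjusted p = 0.00243), the stress sensor gene Sesn2 3.95-fold (edgeR adjusted p = 0.0109) and Mdm2, the ubiquitin ligase of p53, 1.85-fold (edgeR adjusted p = 0.0176). Leaving out ISO replicate 1 left 2 that rose and leaving out ISO replicate 2 or ALLO replicate 1 left 3, and 1 fell without ALLO replicate 2. Trp53 itself had 71.6 and 68.6 CPM in ALLO and 43.6 and 51.2 CPM in ISO (edgeR adjusted p = 0.0613), again named with its values known.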

How the data were processed

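RNA sequencing of aortic grafts gave the expression values. The authors deposited raw counts per gene with gene lengths, in the layout of featureCounts. Subread 1.6.4, featureCounts, DESeq2 1.30.0 and R 4.0.3, with mm10 as the build, are named per the submitters' processing notes. Not given in the sources used here are the strand setting, the aligner, the release of the annotation and how reads that map several times were handled. Names and biotypes came from GENCODE M21 (29 of 54752 IDs had no name), and coordinates are those of the deposited table. Of genes with 1 to 20 counts, 68.0% to 74.6% had an even count, so both mates of a pair may have been counted, and the floor was set at 6 counts per library (3 pairs) and counting intervals (95%, exact, for counting error only) were taken on halved counts. Reads carried no molecular identifiers that the labels mention.

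Genes were filtered with filterByExpr (minimum count 10), scaled by TMM (factors 0.926 to 1.09) and compared between groups by the quasi-likelihood test of edgeR 4.0.16 in R 4.3.3 (glmQLFit, then glmQLFTest, without covariates), with Benjamini-Hochberg adjusted p under 0.05 over 16498 genes as the threshold. Standard errors are the log2 change over the root of F. CPM used library totals times the TMM factors, and CPM per kb divided these by the exonic length. Chi-square over degrees of freedom between replicates was 154 in ALLO and 45.7 in ISO, so no pair agreed within sampling noise. Alternatives used DESeq2 1.42.0, limma 3.58.1, other scalings and filters, halved counts, gene classes removed, a replicate block and each library left out, in which the lone sample of a group was assumed to vary like the other group. Of the 50 members, 27 shared no exonic base with another gene. Every member was accounted for by role, and from each pathway list up to 3 called genes by adjusted p in the more common direction and 1 in the opposite direction were named. The members and lists were chosen with earlier results of these data known. The procedure was also run on simulated counts with far fewer changed genes than were called here, and the outcome is not reported here. Python 3.11.15, pandas 2.3.3 and matplotlib 3.10.9 were used.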

Additional observations from a re-analysis of the deposited data

How the results depend on the processing

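The 10 members that stayed called under each of 15 alternatives are named above. The number higher in ALLO ranged from 11 to 16 with 1 library left out, from 14 against a 1.5-fold threshold (glmTreat) to 24 with scaling by library size only, and the number lower was 0 to 3 with 1 library left out and 1 by the DESeq2 Wald test and by limma-voom. The median log2 change of the members was 0.77 with scaling by library size only, where the all-gene median shifted by 0.19, and 0.51 to 0.66 with 1 library left out. All genes called numbered 3603 to 4651 with 1 library left out. Whether the replicate numbers pair the libraries is not stated in the labels. The correlation of the replicate differences of the 2 groups was 0.0603, which cannot decide it. With a replicate block 17 members were higher, all among the 20, with Ccng1, E2f7 and Cdkn3 no longer called. The sign turned for 4 members that did not pass: Cdkn2d (-0.024 with upper quartile scaling, -0.013 with no filter, -0.091 with limma-voom, -0.11 with the replicate block, -0.037 without ISO replicate 2 and -0.70 without ALLO replicate 2, range -0.70 to 0.52), Cdk20 (0.12 without ISO replicate 2 and 0.067 without ALLO replicate 1, over a range of -0.51 to 0.12 with 1 library left out), Cdk7 (-0.23 without ISO replicate 1 and -0.24 without ALLO replicate 1, range -0.24 to 0.43) and Cdk9 (-0.18 without ALLO replicate 2, range -0.18 to 0.52). The cause was not tested, beyond the fewer samples of the fits that leave one out. The called members with the fewest counts over both ISO libraries were E2f8 (7), Cdkn2a (10), Cdkn3 (16), Cdk18 (21), Ccne1 (24) and Ccnb1 (25). With 1 library left out, the fold was 34.9 to 82.5 for E2f8 and 11.3 to 34.7 for Cdk18, but 10.8 to 11.8 for Ccne1 and 16.5 to 20.4 for Ccnb1.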

Other observations

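The ISO libraries differed for several members that were low in both. ISO replicate 1 was above ISO replicate 2 by 2.28 on the log2 scale for Cdk1, 1.63 for Cdk18, 1.28 for E2f8 and 1.21 for E2f2, and it was also the library with the higher summed T cell markers (11.6 CPM, against 3.26 CPM in replicate 2) and B cell markers (38.5 CPM, against 0.422 CPM), while its summed NK and cytotoxic markers were lower (2.22 CPM, against 5.73 CPM). Summed macrophage markers (403 CPM, against 156 CPM), neutrophil markers (128 CPM, against 13.1 CPM) and plasma cell markers (95.6 CPM, against 52.9 CPM) were higher in ISO replicate 1 too. Its summed smooth muscle, endothelial and fibroblast markers were not higher. The part of these cells in the differences was not tested. Ccna2 and Ccne1, by contrast, had 31 and 30 counts and 12 and 12 counts in ISO replicates 1 and 2. Between the ALLO libraries, Cdkn2d, Cdk10, Cdkn1a and Ccnd3 differed by -1.22, -1.21, -0.84 and -0.73 (log2, replicate 1 minus replicate 2). Phlda3 and Bbc3, p53 targets named with their values known, had 22.3 and 7.62 CPM in ALLO replicate 1 and 65.9 and 26.2 CPM in ALLO replicate 2. These differences within a group are values of single libraries and have no test.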
